A study of Mus musculus with 18 samples.

Results

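The genes that encode the cytosolic translation initiation factors (eIF) and elongation factors (eEF) were followed through 3 h of arginine or leucine starvation in mouse embryonic stem cells with and without GCN2. Members were the protein-coding genes whose GENCODE vM21 symbol begins with Eif1 to Eif6, Eef1 or Eef2, apart from the 4 Eif2ak genes, which encode the kinases of eIF2α. This rule found 64 genes among 55471 identifiers in the count tables, of which 21974 are protein-coding. All cells were of the E14 line, grown on gelatin with serum and leukaemia inhibitory factor (LIF). The wild type (Wt) and the Eif2ak4-/- cells (Gcn), which lack GCN2, each made up 3 groups: Unstarved, Arg (no arginine) and Leu (no leucine). All 6 groups, the unstarved ones included, spent the 3 h in SILAC medium with dialyzed serum, glucose, GlutaMAX, LIF and added lysine, and the unstarved groups also had arginine and leucine. Each group held 3 libraries of poly(A) RNA. Whether the Gcn cells are 1 clone is not stated in the labels, and loss of GCN2 and culture history cannot be told apart. The labels do not say that replicates are separate cultures, so p-values measure the spread between these libraries, which may be technical.

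Translation begins when eIF2 brings the initiator tRNA to the small ribosomal subunit, helped by eIF1, eIF1A, eIF3 and eIF5, while the cap-binding complex eIF4F loads the mRNA. GCN2 binds uncharged tRNA and phosphorylates the α subunit of eIF2, which then blocks eIF2B, the exchange factor that recharges eIF2 with GTP. mTORC1, which also senses amino acids, acts on the eIF4E-binding proteins and, through a kinase cascade, on eEF2 kinase, the brake of elongation. Both routes are known for their action on proteins, and the values here are mRNA levels.

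Library totals ran from 14777012 to 38814785 counts. Eif2ak4 stood at 27 to 33.4 CPM (counts per 1e6, with trimmed-mean scaling, TMM) in the 9 Wt libraries and at 4.03 to 6.37 CPM in the 9 Gcn libraries, with no overlap. All 8 naive stem cell markers were detected, from Klf4 at 114 to 265 CPM to Pou5f1 at 1740 to 2821 CPM over 18 libraries. The summed level of 8 primed or lineage markers was 28 to 29.9 CPM in Wt Unstarved, 26.1 to 32.7 in Wt Arg and 25.9 to 31.6 in Wt Leu, against 19 to 22.2, 25.3 to 28 and 23.7 to 26.7 in the Gcn groups in the same order. In Gcn Arg 4 of the 7 tested were called higher and 1 lower, against 14.3% and 13.7% of all genes. The part of these markers in the Gcn results was not tested. The Gcn libraries with the number 1 (Gcn Unstarved 1, Gcn Arg 1 and Gcn Leu 1) were set off from the rest: on the second principal component of the 9 Gcn libraries, which held 19.6% of variance, they scored -27.8 to -22.7 and the remaining 6 scored 5.97 to 17.9. Gcn counts are therefore also given without them.

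The results turn on Eif5, Eef2k and Eif4a2, whose promoters are shown first, since the transcription factors that act downstream of GCN2 bind short known motifs. Eif5 (chromosome 12, 111538016 to 111546752, plus strand), Eef2k (chromosome 7, 120842831 to 120907450, plus strand) and Eif4a2 (chromosome 16, 23107444 to 23114136, plus strand) are given on GRCm38. Each line below is the 100 bases nearest to a RefSeq start that lie in no GENCODE exon (build GRCm38.p6, 5′ to 3′ on the gene's strand), at chr12:111537916-111538015, chr7:120851089-120851188 and chr16:23107344-23107443. Capitals mark a match to the CARE core TGATGNAA, the motif bound by ATF4 with C/EBP partners, on either strand. For Eef2k only a start with this motif was taken, so the match in its line was fixed by that choice. That start lies inside the gene as placed above, and other starts of Eef2k are not shown. No such choice was made for Eif5 and Eif4a2.
Eif5: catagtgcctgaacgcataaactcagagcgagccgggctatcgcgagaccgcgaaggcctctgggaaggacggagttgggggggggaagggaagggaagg
Eef2k: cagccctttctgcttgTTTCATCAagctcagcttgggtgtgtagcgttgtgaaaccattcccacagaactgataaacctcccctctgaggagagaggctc
Eif4a2: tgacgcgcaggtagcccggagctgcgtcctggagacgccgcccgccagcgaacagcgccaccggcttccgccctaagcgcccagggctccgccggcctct
In all, 48 of the 64 genes matched the RefSeq promoter table, with 62 promoters from 250 bases before to 50 after the start. The motif TGATGNAA was found on either strand in 2 of these 62, against 3.97% of 32851 promoters of that length. Both matches lay on the minus strand, at -84 from one of the starts of Eef2k and at -96 from the start of Eif2s3x. The motif TGACGTCA, the cAMP response element, was found in 1 member promoter, at 2 bases after the start of Eef2, against 1.79% of all promoters. A match is a description of letters, not of a bound site, and these windows say nothing about other parts of the genes.

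Translation factor mRNAs were among the most abundant in these cells. Together they took 3.38% ± 0.041 of counts in Wt Unstarved, 3.37% ± 0.028 in Wt Arg and 3.43% ± 0.046 in Wt Leu, and in Gcn the shares were 3.26% ± 0.03, 2.95% ± 0.062 and 3.13% ± 0.029 for Unstarved, Arg and Leu (SD, n = 3 each). The 3 Gcn Arg libraries, at 2.91% to 3.02%, were the lowest of the 18. Of 61 members tested over all libraries, 41 were in the top 10% of genes by CPM, and the median member stood at 275 CPM against 13.2 for all tested genes. The members lie on 20 chromosomes, and their median GC content (50.2%) and exon length (3.43 kb) were near those of all tested genes (50.2% and 3.77 kb).

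Levels of different genes were compared as CPM per kb of exon, averaged over 18 libraries. Eef1a1, which delivers aminoacyl-tRNA to the ribosome, led with 3024 ± 306 (SD), followed by Eef2, the translocation factor, with 953 ± 155, and Eif5a, which eases peptide bond formation at stalling sequences, with 852 ± 111. The eEF1B subunits Eef1b2 (526 ± 57) and Eef1g (310 ± 31), which recharge eEF1A with GTP, came next. Genes named Eef thus held 4 of the first 5 places, and the ranges of Eef2 (672 to 1208) and Eif5a (653 to 1062) overlapped over libraries. With the longest coding transcript in place of all exons, Eif5a (1410) stood above Eef2 (1026), and Eif4a1 (696) above Eef1b2 (687) and Eef1g (432). After Eif5a, the Eif genes were led by the helicase Eif4a1 (285 ± 38), the eIF4E inhibitor Eif4ebp1 (273 ± 59) and the start-codon factor Eif1 (239 ± 33). By longest transcript the order was Eif4a1 (696), Eif3k (408), Eif1 (379) and Eif4ebp1 (300). Among the 12 subunits of eIF3 other than the Eif3j genes, Eif3b was highest at 221 ± 22, and the ratio of the highest to the lowest subunit, taken within each library, averaged 3.52. This order depended on the length used. By longest transcript the ratio was 3.72, and Eif3k (408), Eif3e (295), Eif3i (264) and Eif3h (259) stood above Eif3b (251). At the other end, Eif4e1b and Eif4ebp3 passed the filter on low counts in no fit, Eef1akmt3 passed only in the Gcn fit, and Eef1a2 stayed at 0.518 to 1.67 CPM in every library. Reads of Eef1a1, Eif4a1, Eif5a and Eif1 may be shared with their processed copies, and those of Eif1a with Eif1ax, Eif3j1 with Eif3j2 and Eif2s3x with Eif2s3y, under a counting rule not given in the sources used here, so these levels are uncertain.

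**Figure D1:**
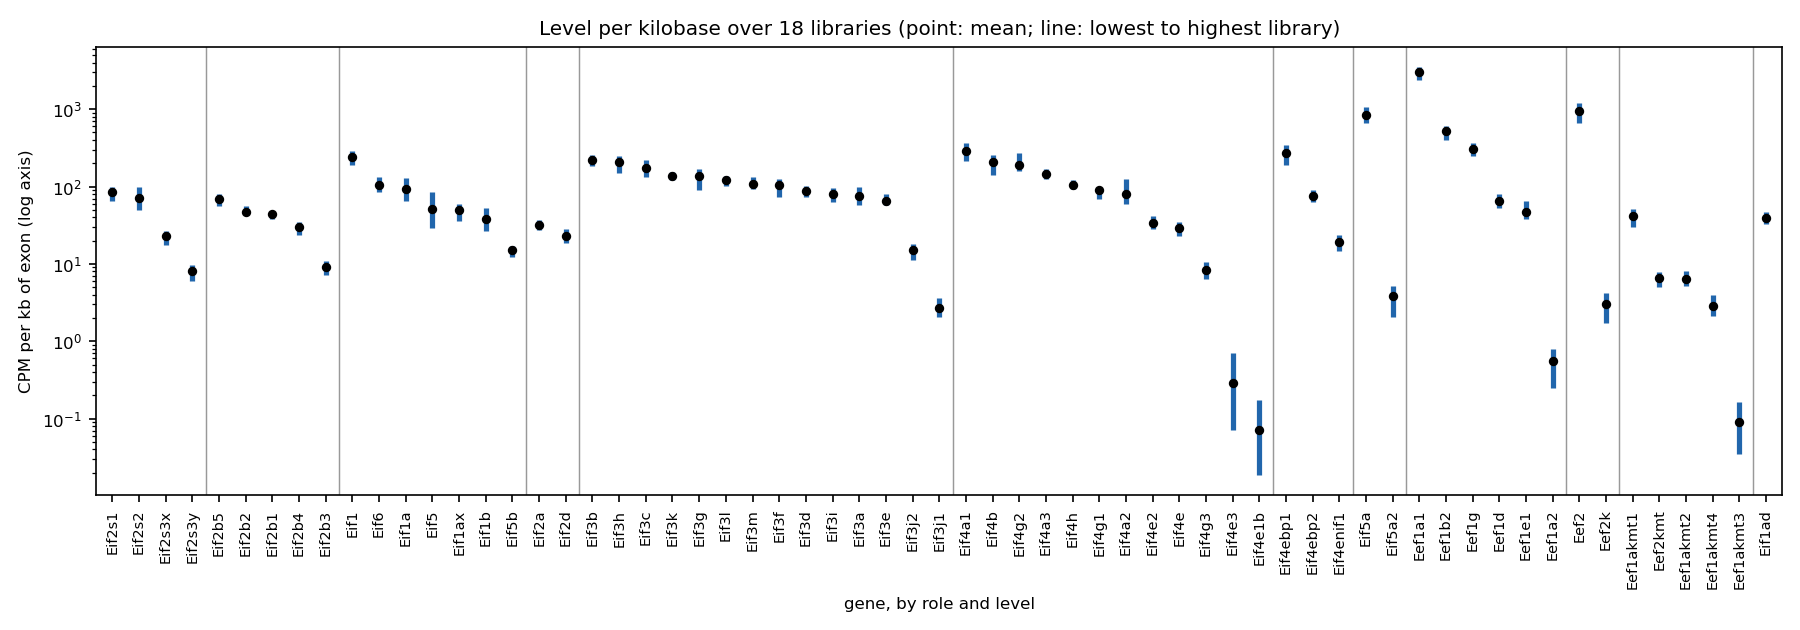
Level of each member with counts in every library, as CPM per kb of exon on a log axis, ordered by role (grey lines part the roles) and by level; points are means and lines run from the lowest to the highest of 18 libraries. Eef1a1 stands highest at 3024, ahead of Eef2 at 953 and Eif5a at 852.

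Starvation lowered more translation factor mRNAs than it raised, with small changes. In Wt Arg, 10 of 61 tested members were called higher and 19 lower at an adjusted p under 0.05 (edgeR quasi-likelihood test, Benjamini-Hochberg over all genes), against 20.9% and 20% of all genes, with a median log2 fold change of -0.11 against -0.01. In Wt Leu, 8 of 61 were called higher and 19 lower, against 15.5% and 14.1% of all genes (median -0.10 against 0.01). In Gcn Arg, 3 of 62 were called higher and 18 lower, against 14.3% and 13.7% (median -0.19 against -0.01), and in Gcn Leu 4 of 62 higher and 19 lower, against 11.7% and 10% (median -0.13 against 0.00). Arg and Leu of 1 genotype share their unstarved libraries. The members' share of lower calls stood at 29% to 31.1% in all 4 comparisons, above that of all genes each time. Abundant genes are called more often, so the counts were also taken over genes at a mean of 5 CPM or more: 32.8% of 58 members were then lower in Wt Arg against 26.9% of 10459 genes, 31% against 19.3% in Wt Leu, 31% against 18.7% in Gcn Arg and 32.8% against 13.9% in Gcn Leu. This floor did not bring both sets to the same level, with the median member at 275 CPM. The part of abundance in these shares was not tested.

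These splits moved with the scaling. With library size only, the counts of higher and lower members were 13 and 15 in Wt Arg (against 23% and 17.5% of all genes under that scaling), 9 and 15 in Wt Leu (17% and 12.3%), 5 and 9 in Gcn Arg (21.1% and 8.53%) and 5 and 11 in Gcn Leu (15.9% and 6.51%). That scaling also moved the median of all genes in Gcn Arg from -0.01 to 0.11, and the member median there was then -0.07. TMM factors were 0.953 to 0.963 in Gcn Unstarved, against 1.04 to 1.05 in Gcn Arg. Replicate numbers were taken to pair the Gcn libraries, from the data and not from the labels. With the number as a block 5 members were higher and 36 lower in Gcn Arg, against 22.3% and 24.2% of all genes in that fit, and 6 and 29 in Gcn Leu, against 20.5% and 20.2%. Without the Gcn libraries numbered 1 the counts were 3 and 16 in Gcn Arg, against 13% and 12.5% of all genes, and 4 and 15 in Gcn Leu, against 10.9% and 8.95%. Leaving out Gcn Unstarved 2 gave 13 calls in either Gcn comparison, while 10% of all genes were higher and 9.36% lower in Gcn Arg, and 6.97% and 6.12% in Gcn Leu. Leaving out Gcn Leu 1 gave 15 in Gcn Leu, with 10.3% and 8.8% of all genes.

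**Figure D2:**
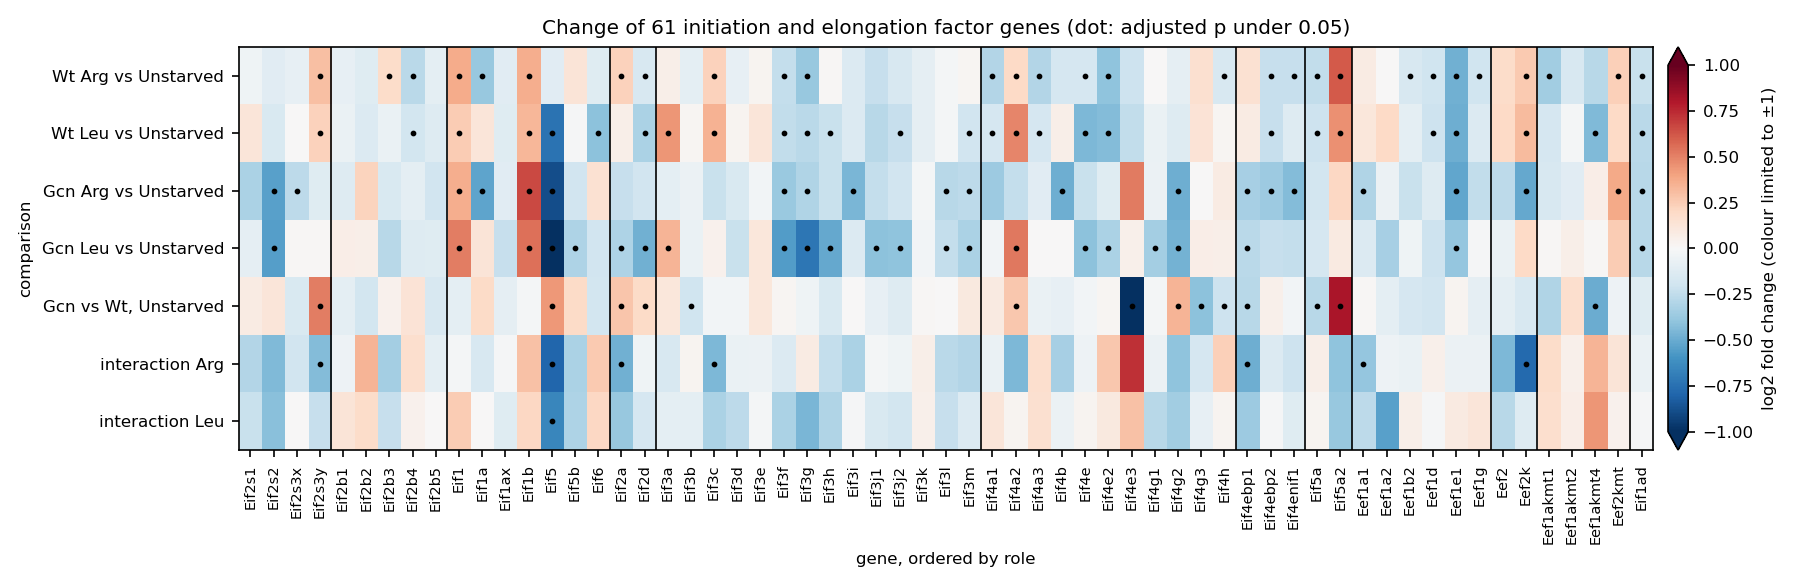
Log2 fold change (colour, limited to ±1) of 61 members tested in every fit, ordered by role (black lines part the roles), in 4 starvation comparisons, between unstarved genotypes and for 2 interactions (the change in Gcn minus that in Wt); dots mark an adjusted p under 0.05. Eif5 is dark in Gcn Arg (-0.89) and Gcn Leu (-1.38), and Eif1 and Eif1b are higher in all 4 starvation comparisons.

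Of the 4 genes for eIF2 subunits, Eif2s2, the β subunit, was called lower in both Gcn comparisons. Its level in unstarved Gcn cells was 514, 593 and 657 CPM, against 364, 413 and 426 with arginine starvation and 332, 408 and 452 with leucine starvation. Both starved groups lay below every unstarved library, with a log2 fold change of -0.54 ± 0.13 (SE, adjusted p = 0.00666) for arginine and -0.55 ± 0.13 (adjusted p = 0.00778) for leucine. In Wt it gave -0.11 ± 0.07 and -0.15 ± 0.07 (adjusted p = 0.187 and 0.105), and neither interaction passed (adjusted p = 0.114 and 0.185), so a difference between genotypes is not shown. Eif2s1, the α subunit that GCN2 phosphorylates, passed in none of the 4 comparisons (-0.04 to 0.12 in Wt). In Wt Arg it was called lower under 1 of 14 alternatives, the replicate block plus GC correction (adjusted p = 0.000399). In Gcn Arg it read 321, 359 and 379 CPM against 388, 455 and 486 unstarved, a change of -0.32 ± 0.12 (adjusted p = 0.0667, or 6.02e-05 with the replicate block, 0.017 without the libraries numbered 1, and 0.0253 without Gcn Unstarved 1). Eif2s3x, the X-linked γ subunit, fell in Gcn Arg by 0.26 ± 0.09 on the log2 scale (adjusted p = 0.0487). That call was lost without the libraries numbered 1 (adjusted p = 0.119), without Gcn Unstarved 1, 2 or 3, Gcn Arg 1 or 2, and with library size only (highest adjusted p = 0.246). Its Y-linked counterpart Eif2s3y rose in Wt from 28.2, 27.7 and 25 CPM to 30.7, 33.8 and 35.1 with arginine starvation (0.30 ± 0.08, adjusted p = 0.00446) and to 31.2, 33 and 30.5 with leucine starvation (0.23 ± 0.08, adjusted p = 0.0341). Every starved Wt library lay above the unstarved ones. Under the block plus GC correction neither rise was called (adjusted p = 0.507 and 0.9), and the leucine call was also lost without Wt Leu 1, Wt Leu 2 or Wt Unstarved 3.

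The 5 genes for eIF2B, the exchange factor that phosphorylated eIF2 blocks, changed little. In Wt Arg, Eif2b4 fell from its control (-0.27 ± 0.06, adjusted p = 0.00282) under every alternative run. The other eIF2B calls, Eif2b3 in Wt Arg (0.18 ± 0.07, adjusted p = 0.0428) and Eif2b4 in Wt Leu (-0.18 ± 0.06, adjusted p = 0.0494), were each lost without Wt Unstarved 2 or 3 and several other libraries (highest adjusted p = 0.216 and 0.176). None was called in Gcn, where log2 fold changes lay between -0.28 and 0.22. Eif2d, which can place initiator tRNA without eIF2, fell most in Gcn Leu, where 150, 152 and 140 CPM stood against 210, 204 and 204 (-0.48 ± 0.08, adjusted p = 0.000913). It fell in Wt Leu by 0.32 ± 0.06 on the log2 scale (adjusted p = 0.000601). Its smaller change in Wt Arg (-0.16 ± 0.06, adjusted p = 0.0323) was no longer called without Wt Unstarved 1 or 3 or Wt Arg 2 or 3 (highest adjusted p = 0.141). Eif2a, an unrelated tRNA-binding factor that is not the eIF2 α subunit, was higher in Wt Arg (0.23 ± 0.07, adjusted p = 0.0152) and lower in Gcn Leu (-0.31 ± 0.09, adjusted p = 0.0241). The first call was lost without Wt Unstarved 1 or 3 or Wt Arg 2 (highest adjusted p = 0.0904), and the second without Gcn Unstarved 1 or 2, Gcn Leu 1 or 2, or all the libraries numbered 1 (highest adjusted p = 0.0895).

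Eif5, the factor that makes eIF2 hydrolyse its GTP at the start codon, showed the largest fall of any member. It read 437, 442 and 371 CPM in Wt Unstarved, 394, 389 and 377 in Wt Arg, and 267, 252 and 230 in Wt Leu. In Gcn it read 583, 559 and 540 CPM unstarved, 319, 275 and 309 in Gcn Arg, and 200, 209 and 233 in Gcn Leu. Wt Arg overlapped its control, while Wt Leu and both starved Gcn groups lay wholly below theirs. The fall was 1.67-fold in Wt Leu (log2 -0.74 ± 0.07, adjusted p = 1.84e-06), 1.85-fold in Gcn Arg (-0.89 ± 0.09, adjusted p = 1.63e-05) and 2.6-fold in Gcn Leu (-1.38 ± 0.09, adjusted p = 1.45e-06). Wt Arg gave -0.11 ± 0.07 (adjusted p = 0.265), but was called without Wt Unstarved 3 (-0.19, adjusted p = 0.0449) and with the block and GC correction (-0.29, adjusted p = 2.00e-05). These 3 falls of Eif5 were called under every alternative run.

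Eif1, which keeps the scanning ribosome from starting at poor start codons, rose in all 4 comparisons. It read 423, 424 and 455 CPM in Wt Unstarved, 536, 570 and 580 in Wt Arg and 487, 528 and 530 in Wt Leu. Gcn libraries gave 418, 400 and 399 unstarved, 523, 557 and 473 in Gcn Arg, and 592, 610 and 522 in Gcn Leu. No starved library overlapped its unstarved group. The log2 fold changes were 0.37 ± 0.06 (adjusted p = 8.74e-05), 0.25 ± 0.06 (adjusted p = 0.00471), 0.36 ± 0.09 (adjusted p = 0.00798) and 0.51 ± 0.09 (adjusted p = 0.00125). Its paralogue Eif1b also rose in all 4, by 0.36 ± 0.07, 0.33 ± 0.07, 0.66 ± 0.11 and 0.55 ± 0.11 (adjusted p from 0.00074 to 0.00364), from 33.8 ± 1.5 to 43.2 ± 2.1 CPM in Wt Arg and from 33.2 ± 2.7 to 52.1 ± 6.6 CPM in Gcn Arg (SD, n = 3). Eif1 and Eif5 thus moved in opposite directions in Wt Leu, Gcn Arg and Gcn Leu.

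Eif1a, encoding eIF1A, which opens the small subunit for scanning, fell with arginine starvation. It read 393, 413 and 358 CPM in Wt Unstarved, 288, 334 and 273 in Wt Arg and 427, 456 and 382 in Wt Leu. In cells without GCN2 it stood at 402, 444 and 480 unstarved, 272, 314 and 327 in Gcn Arg, and 395, 508 and 541 in Gcn Leu. Both arginine groups lay below all unstarved libraries of their genotype, and both leucine groups overlapped them. The fall was -0.38 ± 0.08 in Wt (adjusted p = 0.00191) and -0.53 ± 0.13 in Gcn (adjusted p = 0.00716). The X-linked Eif1ax gave -0.11 ± 0.10 and -0.11 ± 0.15 and was not called. Eif6, which keeps the ribosomal subunits apart, fell in Wt Leu from 320 ± 27 to 240 ± 11 CPM (-0.41 ± 0.07, adjusted p = 0.000383). Eif5b, which joins the subunits, fell in Gcn Leu (-0.31 ± 0.08, adjusted p = 0.0175), a call lost if Gcn Unstarved 2 or Gcn Leu 2 was left out (highest adjusted p = 0.0804). Eif1ad, whose product carries a domain of the eIF1A type, fell in all 4 comparisons by 0.22 to 0.28 on the log2 scale (adjusted p from 0.00152 to 0.0384). Both Wt calls of Eif1ad held under every alternative run, and both Gcn calls were lost without the libraries numbered 1 or any Gcn Unstarved library, among others (highest adjusted p = 0.172 and 0.127).

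**Figure D3:**
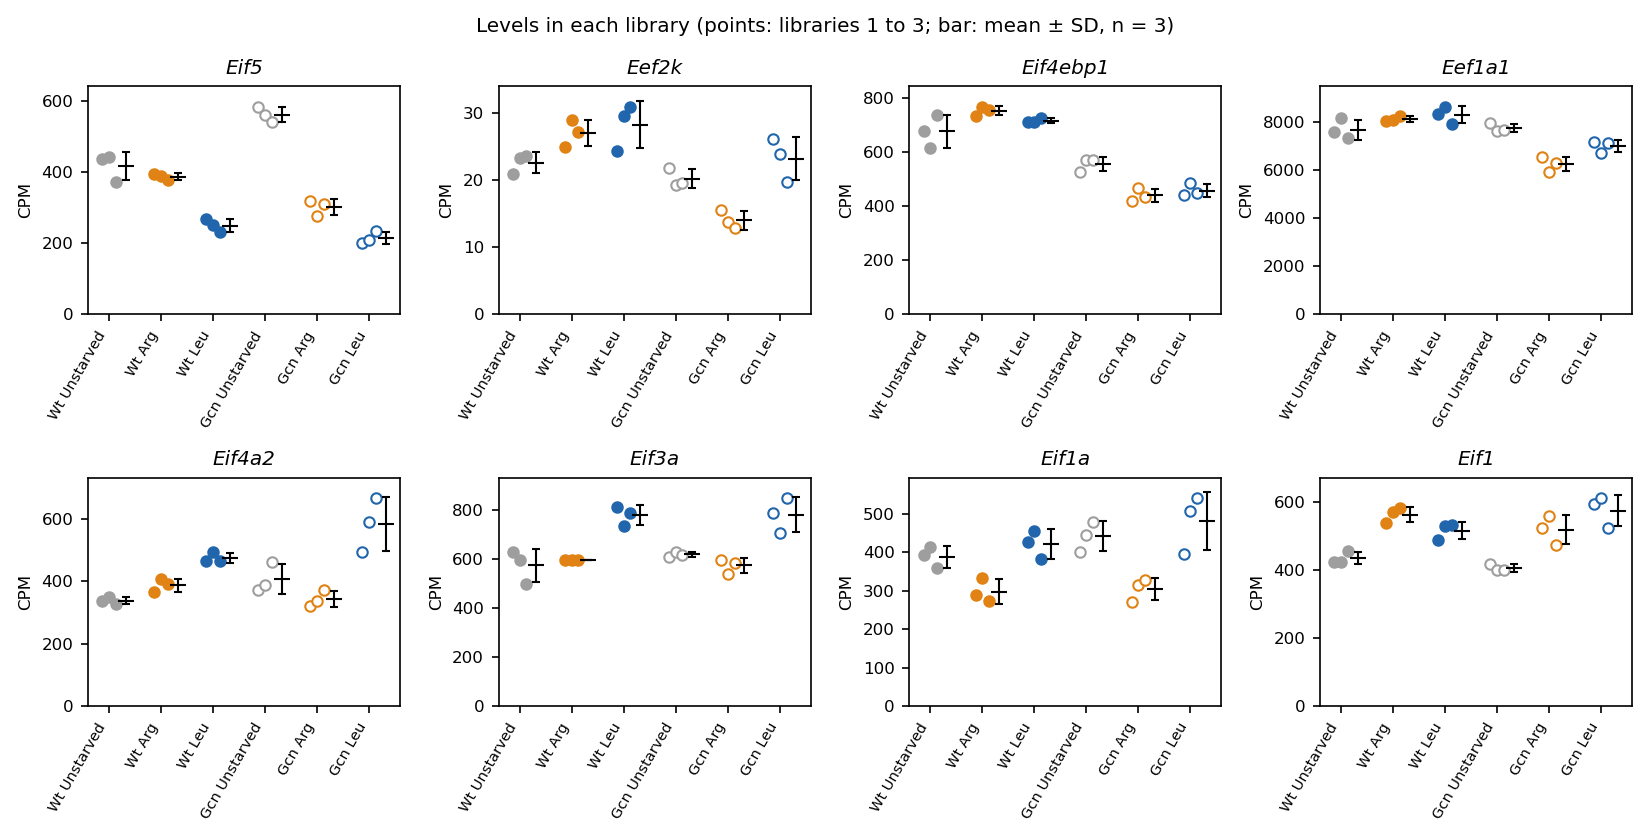
CPM of 8 members in each of 18 libraries (points, filled for Wt and open for Gcn; grey Unstarved, orange Arg, blue Leu) with the group mean ± SD (n = 3); axes start at 0. Eif5 falls to 200 to 233 CPM in Gcn Leu, Eif1a is low in both arginine groups, Eif3a and Eif4a2 are high in both leucine groups, and Eef2k is lowest in Gcn Arg.

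The 14 genes for eIF3, the scaffold that holds the small subunit, tRNA and mRNA together, did not move as a unit. Of them 1 was higher and 2 lower in Wt Arg, 2 and 5 in Wt Leu, 0 and 5 in Gcn Arg, and 1 and 7 in Gcn Leu. Lower calls were thus 14.3%, 35.7%, 35.7% and 50% of eIF3 genes, against 20%, 14.1%, 13.7% and 10% of all genes, and higher calls were 7.14%, 14.3%, 0% and 7.14%, against 20.9%, 15.5%, 14.3% and 11.7%. Genes at a mean of 5 CPM or more were lower in 26.9%, 19.3%, 18.7% and 13.9%. The Gcn Arg count moved most. With library size only it was 0 higher and 1 lower, against 21.1% and 8.53% of all genes. With the replicate block it was 0 and 10, against 22.3% and 24.2%. Eif3g, a subunit that binds RNA, and Eif3f were lower in all 4. Eif3g read 339, 323 and 330 CPM in Wt Unstarved against 262, 243 and 254 in Wt Arg, and 308, 336 and 322 in Gcn Unstarved against 187, 218 and 180 in Gcn Leu, with no overlap. Its log2 fold changes were -0.38 ± 0.06, -0.27 ± 0.06, -0.30 ± 0.10 and -0.72 ± 0.10 in Wt Arg, Wt Leu, Gcn Arg and Gcn Leu (adjusted p = 3.46e-05, 0.00162, 0.0407 and 0.000263). Those of Eif3f were -0.24 ± 0.05, -0.25 ± 0.05, -0.37 ± 0.10 and -0.56 ± 0.10. The Gcn Arg calls were the weak ones. That of Eif3f was lost if Gcn Unstarved 2 or Gcn Arg 3 was left out and with library size only (highest adjusted p = 0.0656), and that of Eif3g if Gcn Unstarved 2 or 3, Gcn Arg 1 or 3, or the libraries numbered 1 were left out and with library size only (highest adjusted p = 0.186).

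Eif3a, the largest eIF3 subunit, went the other way with leucine starvation. It read 630, 597 and 498 CPM in Wt Unstarved, 596, 598 and 596 in Wt Arg and 816, 736 and 788 in Wt Leu. In Gcn it read 610, 632 and 618 unstarved, 598, 541 and 585 in Gcn Arg, and 791, 709 and 850 in Gcn Leu. Both leucine groups lay above every other library of their genotype. The rise was 0.44 ± 0.07 in Wt (adjusted p = 0.000323) and 0.34 ± 0.09 in Gcn (adjusted p = 0.0149). The Gcn call was lost without Gcn Unstarved 1, 2 or 3 or Gcn Leu 3 (highest adjusted p = 0.0619). Eif3c, another core subunit, rose in Wt Arg (0.23 ± 0.06, adjusted p = 0.00656) and Wt Leu (0.35 ± 0.06, adjusted p = 0.000374). In Gcn Leu the lowered subunits included Eif3h (-0.51 ± 0.08), Eif3j1 (-0.41 ± 0.11) and Eif3j2 (-0.40 ± 0.10), with adjusted p of 0.000695, 0.0178 and 0.00932. The Eif3j1 call was lost without Gcn Leu 1 or Gcn Unstarved 2 (highest adjusted p = 0.0735). Eif3i fell in Gcn Arg from 314, 324 and 344 to 234, 238 and 238 CPM (-0.46 ± 0.08, adjusted p = 0.000786).

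The 12 genes named Eif4a, Eif4b, Eif4e, Eif4g or Eif4h, without the eIF4E inhibitors, were grouped by name, not by membership of the cap-binding complex. Eif4a3 and Eif4e2 are thus included. Of this group 11 were tested: 1 was higher and 5 lower in Wt Arg, 1 and 4 in Wt Leu, 0 and 2 in Gcn Arg, and 1 and 4 in Gcn Leu. Lower calls were 45.5%, 36.4%, 18.2% and 36.4% of them, against 20%, 14.1%, 13.7% and 10% of all genes, and the share of higher calls was under that of all genes each time (0% to 9.09%, against 11.7% to 20.9%). Of genes at a mean of 5 CPM or more, 26.9%, 19.3%, 18.7% and 13.9% were lower, so the Gcn Arg share was near that background. With library size only the lower calls were 3, 2, 2 and 2, against 17.5%, 12.3%, 8.53% and 6.51% of all genes. Eif4a2, a helicase that unwinds mRNA leaders and that also takes part in microRNA repression, had the largest rise with leucine starvation in Wt. It read 337, 350 and 327 CPM in Wt Unstarved, 365, 407 and 390 in Wt Arg and 464, 493 and 465 in Wt Leu. Gcn libraries gave 372, 389 and 462 unstarved, 322, 337 and 371 in Gcn Arg, and 495, 590 and 667 in Gcn Leu. The leucine groups lay above all other libraries of their genotype. The rise was 0.20 ± 0.06 in Wt Arg (adjusted p = 0.0127), 0.49 ± 0.06 in Wt Leu (adjusted p = 1.40e-05) and 0.53 ± 0.12 in Gcn Leu (adjusted p = 0.00783), while Gcn Arg gave -0.24 ± 0.12 (adjusted p = 0.169). Without Wt Unstarved 3 or Wt Arg 2 the Wt Arg call was lost, as it was with all 18 libraries in the fit, and with the block and GC correction its sign turned (-0.03, adjusted p = 0.652). Its paralogue Eif4a1 fell in Wt Arg (-0.29 ± 0.06, adjusted p = 0.000599) and gave -0.17 ± 0.06 in Wt Leu (adjusted p = 0.0354), which did not hold if Wt Unstarved 1 or 3 or any Wt Leu library was left out (highest adjusted p = 0.238).

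Eif4e, the cap-binding protein itself, fell with leucine starvation in both genotypes. It read 197, 212 and 199 CPM in Wt Unstarved against 146, 160 and 140 in Wt Leu, and 185, 203 and 206 in Gcn Unstarved against 140, 149 and 157 in Gcn Leu. These groups did not overlap, and the falls were -0.45 ± 0.07 (adjusted p = 9.24e-05) and -0.41 ± 0.09 (adjusted p = 0.00558). With arginine starvation it gave -0.17 ± 0.07 in Wt (adjusted p = 0.0423) and -0.22 ± 0.09 in Gcn (adjusted p = 0.0815, or 0.00153 with the replicate block). That Wt Arg call did not hold without any 1 of Wt Unstarved 1, 2 and 3 and Wt Arg 1 and 3, with library size only and with all 18 libraries in the fit (highest adjusted p = 0.147). Its relative Eif4e2, a cap binder tied to repression, fell in Wt Arg (-0.40 ± 0.06, adjusted p = 3.14e-05), Wt Leu (-0.43 ± 0.06, adjusted p = 2.98e-05) and Gcn Leu (-0.32 ± 0.10, adjusted p = 0.0263). The Gcn Leu call of Eif4e2 was lost if Gcn Unstarved 2, Gcn Leu 1 or Gcn Leu 3 was left out and with library size only (highest adjusted p = 0.0992). Eif4b, which stimulates the helicase, fell in Gcn Arg from 988, 991 and 874 to 685, 704 and 627 CPM (-0.49 ± 0.09, adjusted p = 0.00123) and stood at 1021, 959 and 866 CPM in Gcn Leu, overlapping the unstarved group. Eif4g2, a scaffold without the cap-binding part, fell in Gcn Arg (-0.49 ± 0.10, adjusted p = 0.00283) and Gcn Leu (-0.47 ± 0.10, adjusted p = 0.00514).

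The eIF4E inhibitors were lower in Gcn Arg for all 3 that were tested. Eif4ebp1, whose product sequesters eIF4E when mTORC1 is off, read 675, 613 and 737 CPM in Wt Unstarved, 732, 766 and 755 in Wt Arg and 710, 709 and 725 in Wt Leu. In cells without GCN2 it stood at 526, 570 and 569 unstarved, 417, 466 and 434 in Gcn Arg, and 439, 483 and 449 in Gcn Leu. All Gcn libraries lay below all Wt libraries, and the starved Gcn groups lay below the unstarved one. The Gcn falls were -0.33 ± 0.09 (adjusted p = 0.0121) and -0.27 ± 0.09 (adjusted p = 0.0384), and Wt gave 0.15 ± 0.07 (adjusted p = 0.0688, or 0.015 without Wt Unstarved 3) and 0.08 ± 0.07 (adjusted p = 0.393). The Gcn Arg call was lost without Gcn Arg 1 or Gcn Unstarved 2 and with library size only (highest adjusted p = 0.0718). The Gcn Leu call was lost without the libraries numbered 1 (adjusted p = 0.0508), without Gcn Leu 1 or 3 or Gcn Unstarved 2 or 3, with library size only and with no filter on low counts (highest adjusted p = 0.122). Eif4ebp2, a paralogue, fell in Wt Arg, Wt Leu and Gcn Arg by 0.23 to 0.36 on the log2 scale, with the Wt Leu call lost without Wt Unstarved 3 or Wt Leu 2 (highest adjusted p = 0.054) and the Gcn Arg call lost with library size only (adjusted p = 0.0506). Eif4enif1, which carries eIF4E into the nucleus, fell in Wt Arg (-0.23 ± 0.06, adjusted p = 0.00409) and Gcn Arg (-0.43 ± 0.10, adjusted p = 0.00463).

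Over the 18 libraries the 5 genes most like Eif4ebp1 by Pearson correlation of log2 CPM were Fam84b (0.965), Dusp5 (0.964), Ddit4 (0.962), Phf10 (0.96) and Fosl2 (0.958). The libraries fall into 2 genotypes that do not overlap for Eif4ebp1, so these values are a description of the 18 libraries.

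Among elongation factors, Eef2k, the kinase that inactivates eEF2, changed in opposite directions in the 2 genotypes under arginine starvation. It read 20.9, 23.3 and 23.6 CPM in Wt Unstarved, 24.9, 29 and 27.1 in Wt Arg and 24.3, 29.5 and 30.9 in Wt Leu. In Gcn it read 21.8, 19.3 and 19.5 unstarved, 15.6, 13.8 and 12.8 in Gcn Arg, and 26.1, 23.8 and 19.7 in Gcn Leu. Both starved Wt groups lay above their control, Gcn Arg lay below its own, and Gcn Leu overlapped it. The log2 fold changes were 0.26 ± 0.09 (adjusted p = 0.0323) in Wt Arg, 0.32 ± 0.09 (adjusted p = 0.015) in Wt Leu, -0.51 ± 0.12 (adjusted p = 0.00484) in Gcn Arg and 0.20 ± 0.11 (adjusted p = 0.23, or 0.0321 with the replicate block) in Gcn Leu. The rises in Wt are the less firm of these. In Wt Arg the call did not hold without Wt Unstarved 1 or 2 or Wt Arg 2 or 3 or with all 18 libraries in the fit (highest adjusted p = 0.147), and the Wt Leu call without Wt Unstarved 1 or Wt Leu 2 or 3 (highest adjusted p = 0.0869).

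Eef2 itself was not called in any of the 4 comparisons: it gave 0.18 ± 0.08 in Wt Arg and 0.20 ± 0.08 in Wt Leu (adjusted p = 0.0765 and 0.0554), -0.26 ± 0.12 in Gcn Arg (adjusted p = 0.104, or 0.000391 with the replicate block) and -0.07 ± 0.11 in Gcn Leu. Eef2 was called higher in Wt Arg under 4 of 14 alternatives (library size only, no filter on low counts, the block, and the block with GC correction, where it gave 0.30, adjusted p = 4.18e-05). In Wt Leu it was called under 6 of 14, namely those 4 (0.28 with the block and GC correction, adjusted p = 0.000167), limma-voom, and the fit without Wt Leu 1 (0.28, adjusted p = 0.0123). Eef1a1 read 7587, 8171 and 7355 CPM in Wt Unstarved, 8072, 8097 and 8283 in Wt Arg and 8368, 8655 and 7948 in Wt Leu. Gcn libraries gave 7965, 7652 and 7682 unstarved, 6545, 5934 and 6330 in Gcn Arg, and 7182, 6718 and 7137 in Gcn Leu. Wt groups overlapped, and Gcn groups lay apart from each other. It fell in Gcn Arg by 0.30 ± 0.08 on the log2 scale (adjusted p = 0.0167), which did not hold without Gcn Unstarved 1 or with library size only (highest adjusted p = 0.117), and Gcn Leu gave -0.14 ± 0.08 (adjusted p = 0.276, or 0.0252 with the replicate block). Its tissue-restricted paralogue Eef1a2 was near 1 CPM and was not called.

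Eef1e1, a small protein that links elongation factor and tRNA synthetase complexes, fell in all 4 comparisons. It read 173, 178 and 209 CPM in Wt Unstarved, 124, 140 and 139 in Wt Arg, 123, 139 and 136 in Wt Leu, 166, 197 and 209 in Gcn Unstarved, 123, 142 and 131 in Gcn Arg, and 135, 155 and 145 in Gcn Leu. Every starved library lay below the unstarved ones of its genotype. The log2 fold changes were -0.48 ± 0.08, -0.49 ± 0.08, -0.52 ± 0.10 and -0.39 ± 0.10 (adjusted p = 9.68e-05, 0.000137, 0.00207 and 0.0163), of which the Gcn Leu call was lost if Gcn Unstarved 2, Gcn Unstarved 3 or Gcn Leu 1 was left out (highest adjusted p = 0.0605). Of the other eEF1 genes, Eef1b2, Eef1d and Eef1g were lower in Wt Arg by 0.16 to 0.20, and Eef1d also in Wt Leu by 0.21. These 4 calls were lost without Wt Unstarved 1 and with all 18 libraries in the fit (highest adjusted p = 0.197). Eif5a fell in Wt from 2484, 2311 and 2524 CPM to 2065, 2043 and 2062 with arginine starvation (-0.25 ± 0.06, adjusted p = 0.00247) and to 2079, 2142 and 2121 with leucine starvation (-0.21 ± 0.06, adjusted p = 0.0106, or 0.0979 with all 18 libraries in the fit). In Gcn it gave -0.18 ± 0.12 and -0.17 ± 0.12 (adjusted p = 0.278 and 0.339, or 0.00786 and 0.014 with the replicate block). Its paralogue Eif5a2 went up in Wt, from 12.5, 12.9 and 10.5 to 19.7, 19.2 and 15.9 CPM in Wt Arg (0.61 ± 0.11, adjusted p = 0.000243) and 16.7, 17.7 and 15.2 in Wt Leu (0.46 ± 0.11, adjusted p = 0.00415). The eIF5A paralogues thus moved in opposite directions in Wt, and in Gcn Eif5a2 gave 0.21 ± 0.11 and 0.09 ± 0.11 and was not called.

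Among the methyltransferases that modify elongation factors, Eef2kmt rose in Wt Arg (0.24 ± 0.08, adjusted p = 0.0304, lost without any Wt Unstarved library or Wt Arg 1 or 3, highest adjusted p = 0.13) and Gcn Arg (0.38 ± 0.11, adjusted p = 0.0171, lost without Gcn Arg 1, Gcn Arg 2 or Gcn Unstarved 2, highest adjusted p = 0.102). Eef1akmt1 fell in Wt Arg (-0.35 ± 0.08, adjusted p = 0.0032). Eef1akmt4 fell in Wt Leu (-0.44 ± 0.13, adjusted p = 0.018, lost without Wt Unstarved 1 or Wt Leu 3, highest adjusted p = 0.0768). Members of the terminal oligopyrimidine class, whose mRNAs are translated under mTORC1 control (9 genes: Eef1a1, Eef1b2, Eef1d, Eef1g, Eef2, Eif3e, Eif3f, Eif3h and Eif4b), had 0 higher calls in the 4 comparisons and 4, 3, 3 and 2 lower calls in Wt Arg, Wt Leu, Gcn Arg and Gcn Leu (44.4%, 33.3%, 33.3% and 22.2%, against 20%, 14.1%, 13.7% and 10% of all genes). The lower shares of genes at a mean of 5 CPM or more were 26.9%, 19.3%, 18.7% and 13.9%. With library size only the lower calls were 3, 3, 1 and 2, against 17.5%, 12.3%, 8.53% and 6.51% of all genes. That scaling also gave 1 higher call each in Wt Arg and Wt Leu, against 23% and 17% of all genes. With the replicate block 8 were lower in Gcn Arg, against 24.2%.

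The 2 starvations were also compared directly. In Wt, Leu against Arg gave 4 of 61 members higher and 6 lower, against 5.25% and 4.76% of all genes. In Gcn, 6 of 62 were higher and 4 lower, against 4.64% and 3.88% of all genes. With the replicate block, which pairs these libraries in both genotypes, the counts were 8 and 9 in Wt, against 10.6% and 9.98% of all genes in that fit, and 18 and 11 in Gcn, against 14.4% and 12.3%. In Wt this block also ties the Wt Unstarved libraries, whose numbers were not taken to pair them. Leaving out Wt Arg 2, Wt Leu 2 or Wt Leu 3 gave 6, 6 and 5 calls in Wt, against 2.83% to 3.32% of all genes higher and 2.49% to 2.92% lower. Leaving out Gcn Arg 2 or Gcn Leu 3 gave 6 calls in Gcn, against 3.27% to 3.66% higher and 2.75% to 2.88% lower. Without the libraries numbered 1, Gcn kept counts of 6 and 4, against 4.12% and 3.27% of all genes.

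Eif5 was lower with leucine than with arginine starvation in Wt (-0.64 ± 0.07, adjusted p = 4.88e-05) and in Gcn (-0.49 ± 0.09, adjusted p = 0.00566). Eif1a was higher (0.50 ± 0.08, adjusted p = 0.00132, and 0.66 ± 0.13, adjusted p = 0.00597), as were Eif3a (0.38 ± 0.07, adjusted p = 0.0034, and 0.45 ± 0.09, adjusted p = 0.00782) and Eif4a2 (0.29 ± 0.06, adjusted p = 0.00469, and 0.77 ± 0.12, adjusted p = 0.00206). These start-codon, scaffold and helicase genes passed in both genotypes, though Eif4a2 in Wt did not with all 18 libraries in the fit (adjusted p = 0.0768). Eif4e was lower in Wt (-0.27 ± 0.07, adjusted p = 0.0142), a call lost if Wt Leu 1, Wt Arg 2 or Wt Leu 3 was left out (highest adjusted p = 0.09). In Gcn, Eef2k (0.71 ± 0.12, adjusted p = 0.002) and Eif4b (0.50 ± 0.09, adjusted p = 0.00443) were also higher with leucine starvation. So was Eif3i (0.31 ± 0.08, adjusted p = 0.0264), while Eif3g was lower (-0.42 ± 0.10, adjusted p = 0.0207). The last pair was lost when single libraries were left out: Eif3i without Gcn Arg 1, 2 or 3 or Gcn Leu 2 or 3 (highest adjusted p = 0.125), and Eif3g without Gcn Leu 1, Gcn Arg 2 or Gcn Leu 3 (highest adjusted p = 0.076). With the replicate block, Eif2s1 was higher with leucine than with arginine starvation in Wt (0.16, adjusted p = 0.0141, against 0.148 with no block) and in Gcn (0.23, adjusted p = 0.00245, against 0.29). The block also added Eef1a1 (0.16, adjusted p = 0.0182), Eef2 (0.19, adjusted p = 0.00832), Eif2s3x (0.27, adjusted p = 0.00232) and Eif4e (-0.18, adjusted p = 0.0107) in Gcn.

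Between unstarved genotypes, 7 of 61 members were higher in Gcn and 7 lower, 11.5% of members each way, against 16.6% and 16.2% of all genes. With library size only the counts were 5 and 12, against 14.6% and 18.5% of all genes. Without the Gcn libraries numbered 1 they were 8 and 7, against 14.9% and 16.6%. Leaving out Wt Unstarved 1 or Wt Unstarved 3 gave 9 and 8 calls in all, against 12.3% to 12.5% of all genes higher and 12.7% to 13% lower. The fibroblast marker sum, of which Postn, Lum and Dcn stayed under 1 CPM in every library, was 14.9 to 19.3 CPM in Wt Unstarved and 6.21 to 8.01 in Gcn Unstarved, with 3 of its 4 tested genes called lower, against 16.2% of all genes. Gm42418, a transcript known to take up ribosomal RNA reads, held 0.224% to 1.21% of counts in Wt Unstarved and 1.5% to 3.97% in Gcn Unstarved. The part of either in these results was not tested, and in bulk RNA fewer cells of a type and less RNA per cell cannot be told apart.

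By adjusted p the first of these differences was in Eif5a2, at 12.5, 12.9 and 10.5 CPM in Wt and 20.2, 21.5 and 21.9 in Gcn, 1.76-fold higher with no overlap (0.82 ± 0.11, adjusted p = 5.57e-06). Eif2s3y was higher in Gcn, at 39.6, 38.5 and 36.8 CPM (0.51 ± 0.08, adjusted p = 4.22e-05, or 0.0892 under the block plus GC correction). Here that block was shared by both genotypes, whose numbers were not taken to pair libraries. Eif5 was higher as well, by 0.43 ± 0.08 (adjusted p = 0.000366). All 3 had a higher starting level in unstarved cells without GCN2. Eif4g2 was higher, at 2725, 2490 and 2262 CPM against 1959, 2112 and 1853 (0.34 ± 0.08, adjusted p = 0.0034, or 0.0948 with the block and GC correction), and Eif4g3, another eIF4F scaffold, was lower, at 76.3, 74 and 75.3 against 104, 102 and 93.4 CPM (-0.41 ± 0.08, adjusted p = 0.000379). The eIF4G family thus split by gene. Eif4ebp1 was lower (-0.28 ± 0.07, adjusted p = 0.00447), as was Eif5a (-0.28 ± 0.09, adjusted p = 0.0159), whose call was lost without Wt Unstarved 3 or Gcn Unstarved 1 and with the block and GC correction (highest adjusted p = 0.0923). Eif4e3, a cap-binding relative near the limit of detection, read 0.938, 0.825 and 1.77 CPM in Wt and 0.696, 0.185 and 0.267 in Gcn (-1.63 ± 0.45, adjusted p = 0.00758, lost without Wt Unstarved 3 or Gcn Unstarved 2, highest adjusted p = 0.0572). Eef1akmt4 was lower (-0.50 ± 0.14, adjusted p = 0.0106, lost without Wt Unstarved 1 or Gcn Unstarved 1, highest adjusted p = 0.0724).

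The test of whether starvation acted differently without GCN2 is the interaction, the log2 change in Gcn minus that in Wt. For arginine, 0 of 61 members were called higher and 7 lower, against 0.62% and 1.68% of all genes. For leucine, 0 were called higher and 1 lower, against 0.154% and 0.668%. With library size only, arginine gave 1 higher and 3 lower, against 1.76% and 0.957%. The median interaction of the members was -0.07 for arginine and -0.06 for leucine, and with library size only it turned to 0.02 and 0.01, so no direction is given for the members as a whole. Counts were the same without the Gcn libraries numbered 1 (7 and 1). All genes then gave 1.07% higher and 1.69% lower for arginine, and 0.191% and 0.55% for leucine.

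Eif5 was the only member called for both amino acids, at -0.79 ± 0.12 for arginine (adjusted p = 0.000387) and -0.65 ± 0.12 for leucine (adjusted p = 0.00497). Its fall was thus larger in cells without GCN2, from a higher unstarved level. The group means of Eif5 went from 561 ± 21 CPM to 301 ± 23 and 214 ± 17 in Gcn, and from 417 ± 39 to 387 ± 9 and 249 ± 18 in Wt (SD, n = 3). Eef2k gave -0.78 ± 0.16 for arginine (adjusted p = 0.00934) and -0.13 ± 0.16 for leucine (adjusted p = 0.789), and Eif4ebp1 -0.49 ± 0.10 (adjusted p = 0.0108) and -0.36 ± 0.10 (adjusted p = 0.111). The arginine interactions of Eif5, Eef2k and Eif4ebp1 were called under every alternative run.

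The other 4 arginine interactions were less firm: Eif2a at -0.48 ± 0.11 (adjusted p = 0.0264), Eif3c at -0.45 ± 0.10 (adjusted p = 0.0188), Eif2s3y at -0.43 ± 0.11 (adjusted p = 0.0459) and Eef1a1 at -0.39 ± 0.10 (adjusted p = 0.0304). Of these, Eif2a, Eif3c and Eif2s3y were called higher in Wt Arg and Eef1a1 overlapped its control there, while all 3 Gcn Arg libraries lay below Gcn Unstarved for each of the 4 genes. All 4 calls were lost with library size only and without Wt Unstarved 3, Wt Arg 3, Gcn Unstarved 1, Gcn Unstarved 2 or Gcn Arg 2. Eef1a1 and Eif2s3y also lost theirs without the Gcn libraries numbered 1 (adjusted p = 0.0552 and 0.0682). The highest adjusted p over the alternatives was 0.0952 for Eif2a, 0.0682 for Eif3c, 0.253 for Eif2s3y and 0.0927 for Eef1a1. Leaving out Wt Unstarved 1 or Wt Arg 2 gave 4 arginine calls, and each of Wt Unstarved 3, Wt Arg 3, Gcn Unstarved 1, Gcn Unstarved 2 and Gcn Arg 2 gave 3. In these fits 0.219% to 0.386% of all genes were higher and 0.824% to 1.08% lower. For leucine, leaving out Wt Unstarved 2 or Gcn Leu 2 gave 2 calls, against 0.161% and 0.65%, and 0.0581% and 0.418%, of all genes.

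**Figure D4:**
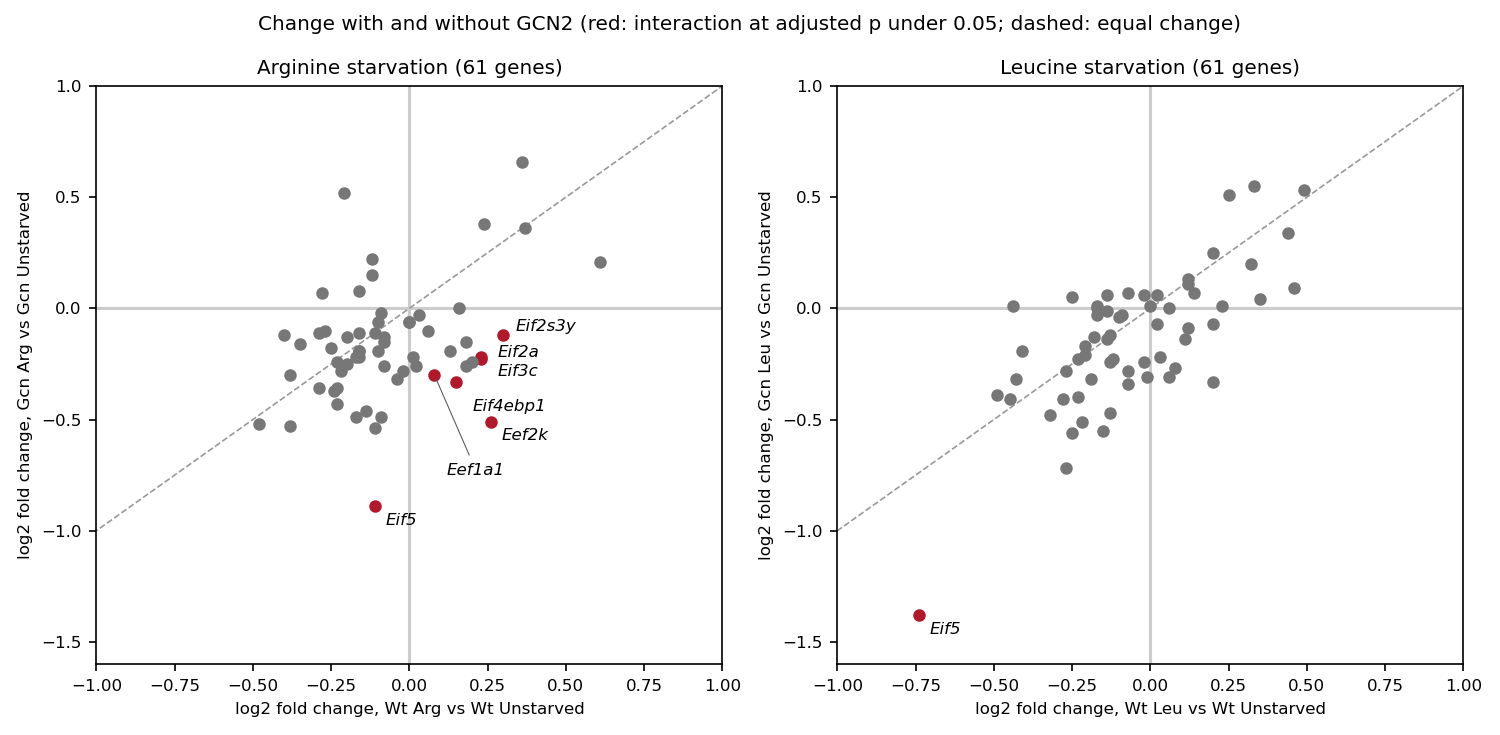
Log2 fold change with starvation in Wt (horizontal) and in Gcn (vertical) for 61 members, for arginine (left) and leucine (right); red points have an interaction at an adjusted p under 0.05 and the dashed line marks equal change. Eif5 is red and below the line in both panels, and 6 further red points lie below it for arginine, along with members not called.

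Other genes of translation were taken from lists that hold no member. Of 24 further cytosolic translation genes, 3 were higher and 3 lower in Wt Arg, 1 and 2 in Wt Leu, 1 and 6 in Gcn Arg, and 0 and 5 in Gcn Leu. Lower calls were 12.5%, 8.33%, 25% and 20.8% of this list, against 20%, 14.1%, 13.7% and 10% of all genes, and higher calls were 12.5%, 4.17%, 4.17% and 0%, against 20.9%, 15.5%, 14.3% and 11.7%. Mknk2, the kinase that phosphorylates eIF4E, fell in Wt Arg (-0.70 ± 0.07, adjusted p = 1.21e-06) and Gcn Arg (-1.18 ± 0.08, adjusted p = 6.87e-07), and less in Wt Leu (-0.28 ± 0.07) and Gcn Leu (-0.27 ± 0.08). It was thus higher with leucine than with arginine starvation in Wt (0.42 ± 0.07, adjusted p = 0.0014) and Gcn (0.91 ± 0.08, adjusted p = 7.48e-05). Pabpc1 and Pabpc4, which bind poly(A) tails and eIF4G, fell in Gcn Arg (-0.41 ± 0.08 and -0.39 ± 0.08) and Gcn Leu (-0.46 ± 0.08 and -0.31 ± 0.08). The Gcn Leu calls of Mknk2 and Pabpc4 were lost without Gcn Unstarved 2 or Gcn Leu 2, among others (highest adjusted p = 0.153 and 0.0749). Interactions of this list gave 3 lower for arginine and 2 for leucine (12.5% and 8.33%, against 1.68% and 0.668% of all genes), with 0 higher. For arginine these were Mknk2 (-0.48 ± 0.11, adjusted p = 0.0234), Pabpc1 (-0.38 ± 0.09, adjusted p = 0.0265) and Pabpc4 (-0.42 ± 0.10, adjusted p = 0.0212). For leucine they were Pabpc1 (-0.40 ± 0.09, adjusted p = 0.0334) and Pabpc4 (-0.41 ± 0.10, adjusted p = 0.0475). Of 9 mitochondrial translation factors, 3 were higher and 1 lower in Wt Arg, 2 and 0 in Wt Leu, 1 and 1 in Gcn Arg, and 1 and 0 in Gcn Leu (higher 33.3%, 22.2%, 11.1% and 11.1%, against 20.9%, 15.5%, 14.3% and 11.7% of all genes; lower 11.1%, 0%, 11.1% and 0%, against 20%, 14.1%, 13.7% and 10%). Tufm, the mitochondrial counterpart of eEF1A, was the one that fell, in Wt Arg (-0.63 ± 0.09, adjusted p = 5.23e-05) and Gcn Arg (-0.53 ± 0.10, adjusted p = 0.00161).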

How the data were processed

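RNA of 18 libraries was measured by poly(A) sequencing. The submitters' processing notes name GRCm38 as the build and, among the tools, R 4.0.3, HTSeq, STAR 2.7.4a, FastQC 0.11.7 and bcl2fastq. Neither the annotation release nor the strand setting of the counting is given in the sources used here. The deposited files hold raw counts per Ensembl gene, 1 table per genotype, and the deposited normalized tables were not used. Of 55471 identifiers, 55230 matched GENCODE vM21.

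Counts were fitted with edgeR 4.0.16 (R 4.3.3): filterByExpr, TMM scaling and robust quasi-likelihood F tests, with Benjamini-Hochberg adjustment over all tested genes and calls at an adjusted p under 0.05. Each genotype was fitted on its own for starvation (9 libraries; 16140 genes for Wt and 16369 for Gcn), and all 18 libraries were fitted together for the genotype comparison and interactions (16924 genes). The biological coefficient of variation was 0.0749, 0.109 and 0.0935. Values after ± on log2 fold changes are standard errors, and CPM are given as mean ± SD or per library. Alternatives were RLE size factors, library size only, DESeq2 1.42.0, limma-voom (limma 3.58.1), no filter, other sets of libraries, a replicate block, and the block with a GC correction. A block within genotype was added after seeing the data.

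Members, lists and tests were chosen with earlier results of these data known. Single genes were named where they were called with an absolute log2 fold change of 0.3 or more, with up to 10 per direction and comparison, and Eif4ebp1, Eif2s1, Eif4e, Eif5, Eif5a, Eef1a1, Eef1a2, Eef2, Eef2k, Eif2s3x and Eif2s3y were named in addition. Changes under 0.3, those beyond the first 10, Eif1ax and the genes that are no members (Mknk2, Pabpc1, Pabpc4 and Tufm) were named after their values were seen. The paired fits rest on same-numbered libraries deviating together: correlations of their deviations from group means were 0.18 to 0.485 in the 3 Gcn comparisons and 0.166 to 0.285 for Wt Leu and Wt Arg, above the 0.1 taken as the minimum. For Gcn Arg with Gcn Unstarved the own number was best in 2 of 3, since Gcn Arg 2 gave 0.194 with its own number and 0.217 with another. Correlations of same-numbered libraries were 0.096 to 0.201 and 0.049 to 0.197 for Wt Arg and Wt Leu with Wt Unstarved, and -0.159 to 0.0294 between genotypes, and these numbers were not taken to pair libraries. The replicate block still used them, within all 9 Wt libraries and across genotypes in the fit of all 18.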

Additional observations from a re-analysis of the deposited data

Results flagged for a closer look

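For 8 results the effect of starvation differed between the genotypes by the test of the difference itself, the interaction (the log2 change in Gcn minus that in Wt, edgeR quasi-likelihood test over all 18 libraries). With arginine starvation these were Eif5 (-0.79), Eef2k (-0.78), Eif4ebp1 (-0.49), Eif2a (-0.48), Eif3c (-0.45), Eif2s3y (-0.43) and Eef1a1 (-0.39). With leucine starvation it was Eif5 (-0.65). Each interaction also holds the difference between unstarved genotypes. Eif2s3y means were 38.3 CPM in Gcn and 26.9 in Wt unstarved, and 35 and 33.2 with arginine starvation. Eif5 means were 561 and 417 unstarved, and 214 and 249 with leucine starvation. The part of the unstarved levels in these results was not tested. Groups hold 3 libraries, too few for the test of single outlying samples.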

How the results depend on the processing

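Counts are totals of called members, and percentages in brackets are the shares of all genes called higher and lower in the same fit. Of 162 called gene results (all called members and the 4 named other genes), 84 kept call and direction under every alternative, 78 lost the call under at least 1 and 2 changed sign under at least 1; 31 of 68 uncalled ones were called under at least 1, and sign changes among uncalled values were not counted. With the replicate block and GC correction Eif4a2 gave -0.03 in Wt Arg (0.20 without) and -0.03 between unstarved genotypes (0.27 without), neither called. Eif2s1 between unstarved genotypes (0.08, not called) was called at -0.20 (adjusted p = 0.0216) with them. The cause was not tested for any of these.

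With the replicate block, Wt Leu gave 43 calls, 14 higher and 29 lower (20.4% and 20.2%), against 27 with no block. Gcn Arg gave 41 (22.3% and 24.2%) and Gcn Leu 35 (20.5% and 20.2%). Leu against Arg gave 17 in Wt (10.6% and 9.98%) and 29 in Gcn (14.4% and 12.3%). The interactions gave 11 for arginine (0.945% and 2.25%) and 2 for leucine (0.396% and 0.945%). In that fit both genotypes shared the same block, though their numbers were not taken to pair libraries. In Wt, where the numbers did not meet the minimum, every library still correlated best with its own number (3 of 3 against Unstarved for Arg and for Leu), a hint from the data and not from the design. The block gave 13 higher and 26 lower in Wt Arg (24.9% and 25.2%). The block and GC correction together gave 48 in Gcn Arg (23.1% and 26.8%) and 36 in Gcn Leu (21.2% and 23.6%). Leu against Arg then gave 17 in Wt (9.99% and 10.5%) and 32 in Gcn (16.2% and 15.1%), and the leucine interaction 7 (0.887% and 1.79%). The block within genotype, chosen after seeing the data, gave 26 between unstarved genotypes (23.2% and 23.4%). It gave 26 for the arginine interaction (5.91% and 8.89%) and 18 for the leucine interaction (4.43% and 6.67%).

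With all 18 libraries in the fit, Wt Arg gave 19 (17% and 15.4%) and Gcn Arg 32 (16.5% and 17.5%). Leu against Arg gave 5 in Wt (3.01% and 2.4%) and 16 in Gcn (7.55% and 6.3%). The arginine interaction gave 4 with library size only (1.76% and 0.957%) and 13 with DESeq2 (1.39% and 3.22%). The leucine interaction gave 6 with DESeq2 (0.762% and 1.47%), 2 with limma-voom (0.16% and 0.715%) and 2 with no filter (0.318% and 0.702%). Leaving out each library in turn gave 22 to 26 (Wt Arg), 19 to 25 (Wt Leu), 13 to 21 (Gcn Arg), 13 to 19 (Gcn Leu), 5 to 8 and 6 to 8 (Leu against Arg in Wt and Gcn), 8 to 12 (genotypes), 3 to 9 and 1 to 2 (interactions). The shares of all genes moved as well, in Gcn Arg to 10% to 12.3% higher and 9.36% to 12% lower. Members took 3.25% of counts on average, or 2.5% without Eef1a1. Members under 1 CPM (4 on average) are limited by depth.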
